A study of Homo sapiens with 12 samples.

Results

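Cyclin E, cyclin A and their kinase CDK2 form the machinery that starts and carries S phase. The genes described here are CCNE1 and CCNE2, which encode cyclins E1 and E2, CCNA2, which encodes cyclin A2, CDK2 itself, and CDC25A, a phosphatase that activates CDK2. They were chosen by gene symbol, and all 5 were found among the 60612 named rows of the count table and among the 11803 genes with enough reads to be tested. Transcripts were measured by 3′ RNA-seq in CAMA-1, an established ER-positive breast cancer line (ER, oestrogen receptor), labelled wild-type and grown in serum-supplemented RPMI medium. The 4 groups received the solvent DMSO, 100 nM abemaciclib, which inhibits CDK4 and CDK6, 5 nM fulvestrant, which degrades ER, or abemaciclib and fulvestrant together (the combination). Doses in the combination are not restated in the labels. Cells were treated for 5 days before RNA-seq, and each group held 3 biological replicates. All results come from this single line in culture, so the 3 libraries of a group measure the spread between cultures of it and not between tumours.

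Cyclin E binds CDK2 late in G1 and cyclin A binds it in S phase, and the active complexes fire replication origins and keep the retinoblastoma protein phosphorylated. CDC25A removes inhibitory phosphates from CDK2. The cyclin genes and CDC25A are classical targets of E2F transcription factors, which the retinoblastoma protein holds in check when CDK4 and CDK6 are inhibited, and in breast cancer cells ER signalling feeds the same pathway through cyclin D1 and MYC.

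Levels are given as normalised read counts, as CPM (counts scaled to a common library size after TMM normalisation). Because this assay reads the 3′ end of each polyadenylated transcript, no division by gene length was made, and levels of different genes are compared only as read levels. The libraries held 3299119 to 5164667 reads, so 1 read corresponded to 0.190 to 0.297 CPM. A gene was called at the floor of a group when none of its libraries held more than 3 reads. Of 7 luminal epithelial markers 7 were detected, with summed levels of 5556 to 7653 CPM, and of 3 basal markers 1 exceeded 3 reads in any library, with a largest count of 4. Of 3 fibroblast markers 1 did so (summed levels of 14.2 to 25.9 CPM), and of the 3 immune and 2 endothelial markers 0 did. Fulvestrant replicate 3 stood apart from its group, with a chi-square per gene of 9.72 and 15.3 against the other fulvestrant libraries, where all other pairs of replicates gave 1.87 to 5.59. Without that library the calls on the 5 genes were the same in every pairwise comparison, and the interaction for CDK2 lost its call (given with that result).

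Promoter windows were available in RefSeq (GRCh38.p14) for 3 of the 5 genes, each holding 250 bases before and 50 bases after the annotated start. They are shown because E2F binding at the promoters of these genes is the textbook route by which CDK4/6 inhibition reaches them. Each sequence is written 5′ to 3′ on the strand of its gene, at chr3:48188368-48188667 (minus strand) for CDC25A, chr4:121823834-121824133 (minus strand) for CCNA2 and chr19:29811741-29812040 (plus strand) for CCNE1. Capitals mark a match, on either strand, to 1 of the E2F words TTTCCCGC, TTTGGCGC, TTTCGCGC and TTTGCCGC or to TTTGAA, a form of the cell cycle homology region (CHR).
CDC25A: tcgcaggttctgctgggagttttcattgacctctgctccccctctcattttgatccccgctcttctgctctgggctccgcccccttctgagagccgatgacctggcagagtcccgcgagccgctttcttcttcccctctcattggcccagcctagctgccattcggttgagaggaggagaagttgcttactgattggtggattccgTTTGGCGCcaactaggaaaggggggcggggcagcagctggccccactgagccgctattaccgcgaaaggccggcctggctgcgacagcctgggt
CCNA2: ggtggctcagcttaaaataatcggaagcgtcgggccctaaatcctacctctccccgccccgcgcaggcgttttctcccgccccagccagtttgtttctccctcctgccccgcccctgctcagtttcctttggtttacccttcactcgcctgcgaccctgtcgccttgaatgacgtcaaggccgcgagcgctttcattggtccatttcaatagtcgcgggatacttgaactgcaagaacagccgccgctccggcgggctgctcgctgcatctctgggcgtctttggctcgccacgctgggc
CCNE1: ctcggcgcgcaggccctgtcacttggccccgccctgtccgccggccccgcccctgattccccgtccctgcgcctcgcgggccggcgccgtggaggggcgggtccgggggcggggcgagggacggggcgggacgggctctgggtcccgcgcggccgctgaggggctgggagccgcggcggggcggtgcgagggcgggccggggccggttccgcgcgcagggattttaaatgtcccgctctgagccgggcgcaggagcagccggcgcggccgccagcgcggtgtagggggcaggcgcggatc
The CDC25A window held 1 E2F word, TTTGGCGC, whose first base lay at position -44 from the start. The windows of CCNA2 and CCNE1 held 0 matches, which says only that these exact letters are not in these 300 bases. Of 35116 RefSeq windows of this length, 3.31% held at least 1 of the E2F words and 15.2% held the CHR word.

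All 5 genes had their highest level in DMSO, and their levels under each drug and under the combination lay below every DMSO library. CCNA2 and CCNE2 were the members that fell most under abemaciclib, to 8.90% and 14.6% of their DMSO means, and CCNE1 fell least, to 66.1%. In the combination, the level of CCNA2 was 0.154% of DMSO, that of CDC25A 5.03%, that of CCNE2 8.15%, that of CDK2 30.0% and that of CCNE1 39.2%. In bulk RNA, fewer cells in S phase and less of a transcript per cell cannot be told apart, and this holds for every result below.

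**Figure D1:**
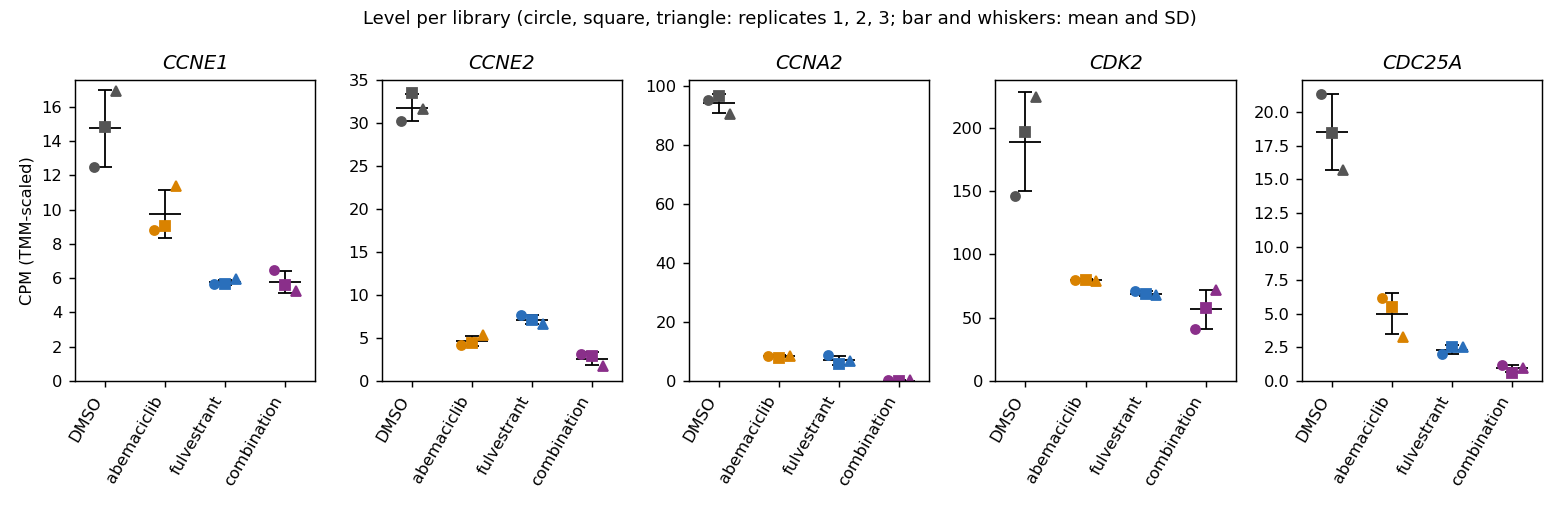
Level of each of the 5 genes in every library, in CPM after TMM scaling on a linear axis that starts at 0 and differs between panels; circles, squares and triangles are replicates 1, 2 and 3, and the bar and whiskers are the mean and SD of 3 libraries. For each gene the 3 DMSO libraries sit above the other 9, and CCNA2 reaches 0.241 CPM at most in the combination.

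CCNE1, the gene of cyclin E1 (ENSG00000105173, chr19:29811991-29824312, plus strand, GRCh38), had the lowest mean of the 5 in DMSO, where its libraries read 12.5, 14.8 and 16.9 CPM. Under abemaciclib they read 8.80, 9.05 and 11.4 CPM, under fulvestrant 5.68, 5.64 and 5.93 CPM, and in the combination 6.50, 5.58 and 5.24 CPM. The DMSO and abemaciclib libraries did not overlap each other or the rest, while the fulvestrant and combination libraries overlapped. Relative to DMSO, the log2 change of CCNE1 was -0.62 ± 0.20 under abemaciclib (SE, edgeR quasi-likelihood test, adjusted p = 0.0129), -1.37 ± 0.21 in the combination (3.55e-06) and -1.37 ± 0.22 under fulvestrant (adjusted p = 6.8e-06). The abemaciclib call was lost when DMSO replicate 3, abemaciclib replicate 1 or abemaciclib replicate 2 was left out (edgeR adjusted p of 0.0854, 0.0613 and 0.0544). The combination was lower than abemaciclib alone (-0.75 ± 0.22, edgeR adjusted p = 0.0101), a call lost without abemaciclib replicate 3 (edgeR adjusted p = 0.0574). Between the combination and fulvestrant the log2 difference was -0.0039 (95% interval -0.49 to 0.48, edgeR adjusted p = 0.998). A difference within that interval, in either direction, is not excluded.

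CCNE2, the gene of cyclin E2 (ENSG00000175305), read 30.3, 33.4 and 31.6 CPM in DMSO, above CCNE1 in each of these libraries. It read 4.20, 4.41 and 5.31 CPM under abemaciclib, 7.66, 7.05 and 6.61 CPM under fulvestrant and 3.13, 2.89 and 1.75 CPM in the combination. No 2 groups overlapped, and the order of the single drugs was the reverse of that for CCNE1, with abemaciclib below fulvestrant. The log2 change from DMSO was -2.78 ± 0.19 under abemaciclib (edgeR adjusted p = 5.73e-12), -2.16 ± 0.18 under fulvestrant (1.21e-10) and -3.63 ± 0.21 in the combination (4.1e-14). With 36 CCNE2 reads in the combination, the SE of its difference from each other group is below counting error. The combination lay below fulvestrant by 1.47 ± 0.27 (edgeR adjusted p = 0.00112) and below abemaciclib by 0.85 ± 0.29 (adjusted p = 0.0232). The second of these rested on few reads, 9 to 14 per combination library, and was lost without abemaciclib replicate 3 (edgeR adjusted p = 0.0814), without combination replicate 3 (0.145) or with no filter on low counts (0.0523). Fulvestrant exceeded abemaciclib by 0.62 ± 0.24, which did not pass the test (edgeR adjusted p = 0.0544) except when combination replicate 3 was left out (0.0423).

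CCNE2 shares 1629 exonic bases with INTS8, a gene of the Integrator complex on the opposite strand. Whether counting used the strand is not given in the sources used here, so reads of the 2 genes may not be separable. INTS8 read 20.4 ± 2.39 CPM in DMSO and 16.8 ± 2.54 CPM under abemaciclib (SD, n = 3), a log2 difference of -0.28 that did not pass the test (edgeR adjusted p = 0.237), where CCNE2 changed by -2.78. In the combination INTS8 remained at 11.1 ± 1.66 CPM, above the 2.59 ± 0.739 CPM of CCNE2, after a called fall of 0.88 (edgeR adjusted p = 0.000389).

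The make-up of cyclin E reads therefore differed between groups. CCNE2 supplied 70.8%, 69.3% and 65.1% of the reads of both cyclin E genes in the 3 DMSO libraries, 57.4%, 55.6% and 52.7% under fulvestrant, 32.3%, 32.8% and 31.8% under abemaciclib and 32.5%, 34.1% and 25.0% in the combination. Abemaciclib and combination libraries overlapped and lay below all libraries without abemaciclib, and fulvestrant lay between those and DMSO. Group means were 68.4 ± 2.96%, 55.2 ± 2.36%, 32.3 ± 0.484% and 30.5 ± 4.88% in that order (SD, n = 3, with 36 to 254 cyclin E reads per library), and the groups differed by an exact permutation test over the 12 libraries (p = 0.000584, where 6.49e-05 is the smallest that 15400 placements allow). With 61 to 66 cyclin E reads per abemaciclib library, the SD of 0.484% is below counting error and does not measure the spread between cultures. The summed level of both genes was 46.5 ± 3.28 CPM in DMSO, 14.4 ± 2.00 CPM under abemaciclib, 12.9 ± 0.428 CPM under fulvestrant and 8.36 ± 1.32 CPM in the combination. The single drugs thus gave similar totals, with ranges that overlapped, from mixtures of the 2 transcripts whose shares did not overlap. The share was tested over the 4 groups together and not between the single drugs.

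**Figure D2:**
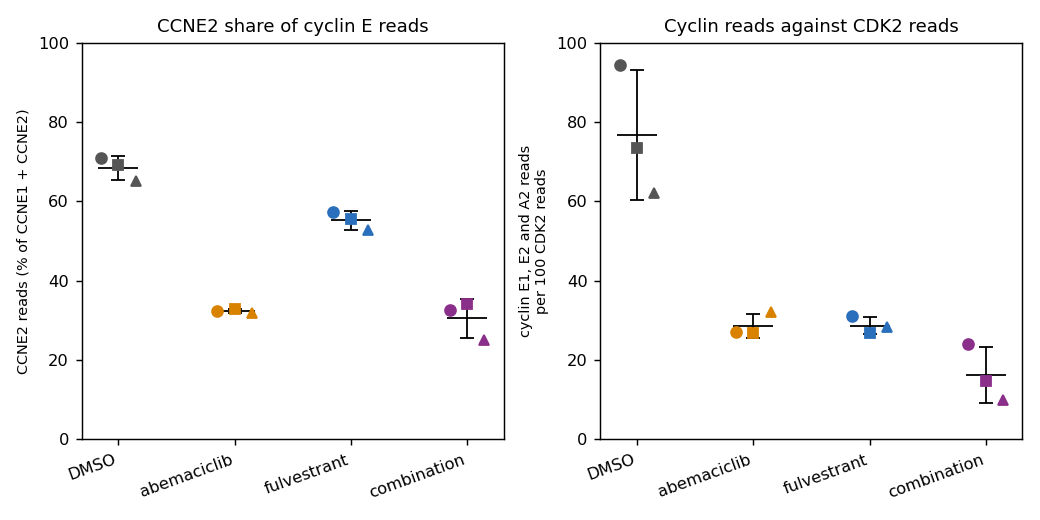
Left, CCNE2 reads as a percentage of CCNE1 and CCNE2 reads in each library; right, reads of CCNE1, CCNE2 and CCNA2 together per 100 reads of CDK2, with symbols for replicates 1, 2 and 3 and bars and whiskers for the mean and SD of 3 libraries. The CCNE2 share is 65.1% or more in DMSO and 34.1% or less in every library that received abemaciclib, and the cyclin reads per 100 CDK2 reads run from 62.1 to 94.3 in DMSO and from 10.0 to 32.2 in the treated libraries.

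CCNA2, the gene of cyclin A2 (ENSG00000145386, chr4:121816444-121823883, minus strand), read 95.3, 96.5 and 90.5 CPM in DMSO. It read 8.60, 7.95 and 8.59 CPM under abemaciclib and 8.65, 5.64 and 6.61 CPM under fulvestrant. In the combination its libraries held 1, 0 and 1 reads, or 0.241, 0 and 0.194 CPM, at the floor of this assay. The single-drug libraries overlapped each other, and the combination lay below both. The log2 change of CCNA2 was -3.48 ± 0.15 under abemaciclib (edgeR adjusted p = 2.68e-16), rank 12 from the most reduced of the 11803 genes tested, and -3.74 ± 0.15 under fulvestrant (adjusted p = 3.59e-17). The single drugs did not differ by this test (-0.26, 95% interval -0.66 to 0.15, edgeR adjusted p = 0.384).

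The combination was lower in CCNA2 than each other group (edgeR adjusted p of 1.64e-20 against DMSO, 4.82e-11 against abemaciclib and 3.74e-09 against fulvestrant). A fitted fold is not informative here, because it depends on the count added to a group with 2 reads in all. The ratio of reads per library size was 665 for DMSO over the combination (95% counting interval 184 to 5499), 59.3 for abemaciclib (16.0 to 495) and 49.6 for fulvestrant (13.3 to 416), where the intervals cover counting error only. CCNA2 shares 254 exonic bases with EXOSC9, an exosome gene on the opposite strand, which fell by 1.13 ± 0.10 under abemaciclib (edgeR adjusted p = 3.86e-10) and by 1.49 ± 0.10 in the combination (7.61e-13). EXOSC9 still read 43.5 ± 2.27 CPM in the combination libraries (SD, n = 3), in which at most 1 read per library was counted for CCNA2.

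CDK2, the kinase (ENSG00000123374, chr12:55966781-55972789, plus strand), was the most abundant of the 5 and varied most between DMSO libraries in absolute terms, at 146, 197 and 224 CPM. It read 80.0, 80.1 and 78.6 CPM under abemaciclib, 70.9, 68.5 and 67.7 CPM under fulvestrant, and 41.1, 57.3 and 71.8 CPM in the combination. The coefficient of variation was 1.09% under abemaciclib, 2.42% under fulvestrant, 20.9% in DMSO and 27.1% in the combination, whose libraries overlapped those of fulvestrant. The first 2 values are below counting error at 311 to 400 and 243 to 297 reads per library. Such values do not measure the spread between cultures. The log2 change of CDK2 from DMSO was -1.25 ± 0.17 under abemaciclib (edgeR adjusted p = 0.000116), -1.46 ± 0.18 under fulvestrant (2.37e-05) and -1.73 ± 0.18 in the combination (4.54e-06). The combination differed from abemaciclib by -0.48 ± 0.18 (edgeR adjusted p = 0.0678) and from fulvestrant by -0.27 (95% interval -0.64 to 0.10, adjusted p = 0.65). The first of these differences passed the test in 7 of 20 alternatives. They were DESeq2 (adjusted p = 0.013), no filter on low counts (edgeR adjusted p = 0.000211), a replicate block (0.00883), a fit of the compared groups only (0.0291), and leaving out DMSO replicate 1 (0.0109), DMSO replicate 3 (0.0339) or combination replicate 3 (-0.69, 0.00475), so that the call depended on the model and on single libraries.

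CDK2 lies wholly within the span of PMEL, a pigment cell gene on the opposite strand, and shares 89 exonic bases with it. It also shares 565 exonic bases with ENSG00000258554, a long non-coding RNA on the opposite strand whose reads were not analysed here. PMEL held 3 to 15 reads per library where CDK2 held 171 to 1084. PMEL was not called changed from DMSO under abemaciclib (0.74 ± 0.51, edgeR adjusted p = 0.259), under fulvestrant (1.05 ± 0.50, 0.0807) or in the combination (0.76 ± 0.50, 0.209).

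CDC25A, the phosphatase (ENSG00000164045, chr3:48157146-48188417, minus strand), read 21.4, 18.4 and 15.7 CPM in DMSO, 6.20, 5.52 and 3.28 CPM under abemaciclib, 1.98, 2.54 and 2.51 CPM under fulvestrant and 1.20, 0.620 and 0.971 CPM in the combination. No 2 groups overlapped, and the 4 groups descended in that order. The log2 change of CDC25A from DMSO was -1.85 ± 0.24 under abemaciclib (edgeR adjusted p = 4.49e-07) and -2.96 ± 0.28 under fulvestrant (9.06e-10). Fulvestrant was lower than abemaciclib by 1.11 ± 0.33 (edgeR adjusted p = 0.0127), a call lost without abemaciclib replicate 1 (0.0786) or fulvestrant replicate 1 (0.0542). The combination libraries held 5, 3 and 5 reads, just above the floor, and the combination fell by 4.28 ± 0.32 from DMSO (edgeR adjusted p = 6.58e-12), with a ratio of reads of 19.8 (95% counting interval 11.4 to 37.7). It was lower than abemaciclib by 2.43 ± 0.39 (edgeR adjusted p = 1.56e-05), but the difference of -1.32 ± 0.46 from fulvestrant did not pass the test (adjusted p = 0.194). With 13 CDC25A reads in the combination, the SE of each of these differences is below counting error. No exon of another annotated gene overlaps those of CDC25A, and no gene overlaps CCNE1.

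Set against the whole table, the 5 genes were called lower in each comparison with DMSO. The comparison asking what CDK4/6 inhibition does alone called 5 of 5 members lower, where 20.7% of all genes tested were called lower, and the median log2 change of the members was -1.85 against 0.00046 for all genes. Fulvestrant alone called 5 of 5 lower against 25.7% of all genes, with a member median of -2.16. The combination called 5 of 5 lower against 27.5%, with a member median of -3.63. These 3 comparisons share their DMSO libraries and are not independent of one another. The members were chosen with earlier results of these data known, so the shares of all genes are given as description only.

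The comparisons between drugs asked what each adds to the other. Adding fulvestrant to abemaciclib called 4 of 5 members lower (17.7% of all genes), with CDK2 the exception, and adding abemaciclib to fulvestrant called CCNE2 and CCNA2, 2 of 5, against 1.63% of all genes. Only these 2 members thus passed the test for a further fall when abemaciclib was added. Between the single drugs, CCNE1 and CDC25A were lower under fulvestrant, 2 of 5 against 15.5% of all genes. With single libraries left out, the number of members called ranged from 2 to 5 for the combination against abemaciclib, the low value without abemaciclib replicate 3, and from 1 to 3 for fulvestrant against abemaciclib, where abemaciclib replicates 1 and 3 and fulvestrant replicate 1 gave the low value.

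**Figure D3:**
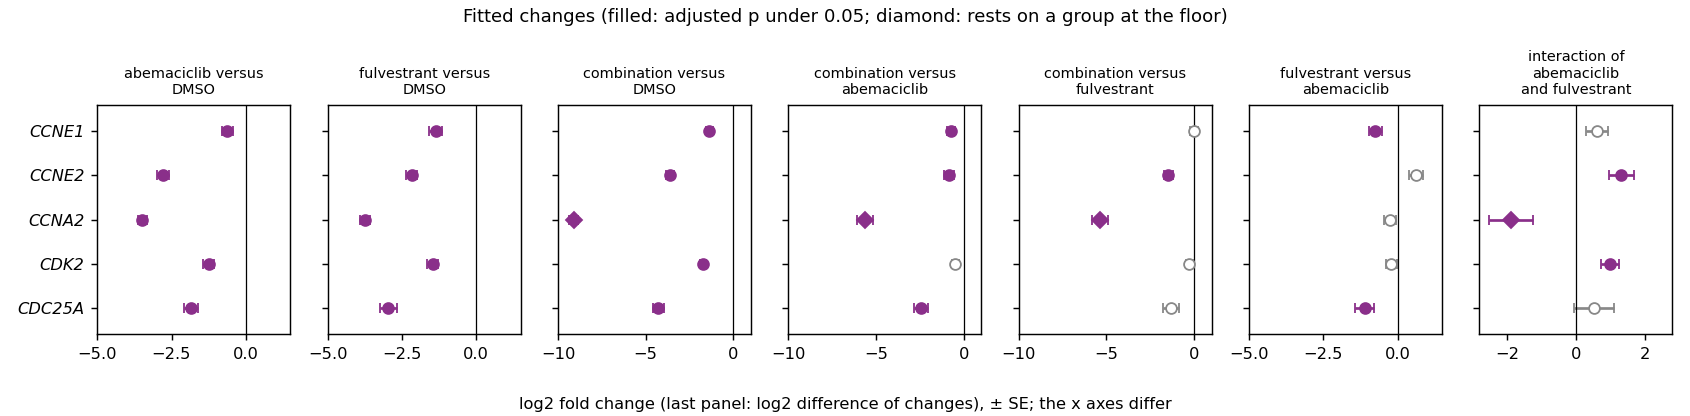
Fitted log2 fold changes of the 5 genes in 6 pairwise comparisons and the interaction, with whiskers of 1 SE; filled symbols passed an adjusted p of 0.05, diamonds rest on a group at the floor, and the x axes differ between panels. The 3 panels against DMSO hold filled symbols only, all below 0, whereas CCNE1 lies at -0.0039 between the combination and fulvestrant.

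Whether the drugs' changes add up was asked with the interaction, the change made by abemaciclib with fulvestrant present minus the change without it. On the log2 scale it was 1.32 ± 0.36 for CCNE2 (edgeR adjusted p = 0.00875) and 0.98 ± 0.26 for CDK2 (0.0182). These 2 members were called on levels above the floor, against 21.1% of all genes called in either direction, and CCNA2 also passed the test (-1.89 ± 0.65, edgeR adjusted p = 0.0438) on a group at the floor. For CCNE2 and CDK2 the positive sign means that abemaciclib lowered the transcript less when fulvestrant was present, with log2 changes of -1.47 against -2.78 for CCNE2 and of -0.27 (not called) against -1.25 for CDK2. The CDK2 call was lost without fulvestrant replicate 2 (edgeR adjusted p = 0.057) or fulvestrant replicate 3 (0.056). The CCNA2 value rests on the 2 combination reads, and its SE of 0.65 is below counting error. With the combination set at the floor of 3 reads per library, the log2 change of CCNA2 on adding abemaciclib to fulvestrant was -3.44, beside -3.48 for abemaciclib without fulvestrant, so no difference between the changes is established for this gene. Its interaction was not called in 10 of 18 alternatives, namely with DESeq2 (-2.14, adjusted p = 0.153), with libraries thinned to the smallest total (-1.39, edgeR adjusted p = 0.184), with no filter on low counts (0.0733), and when any of 7 single libraries was left out (-2.30 to -1.38, edgeR adjusted p of 0.051 to 0.214). The interaction was not called for CCNE1 (0.61 ± 0.32, edgeR adjusted p = 0.175) or CDC25A (0.53 ± 0.57, 0.553), for which the 95% intervals ran from -0.0053 to 1.23 and from -0.60 to 1.65.

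The 5 genes did not keep their proportions to one another. Over the 10 pairs of members, the log2 ratio within a library differed among the 4 groups for 9 pairs (exact permutation test, Benjamini-Hochberg adjusted over the 10). The ratio of CCNE1 to CCNE2 was -1.09 ± 0.19 in DMSO, -0.28 ± 0.13 under fulvestrant, 1.00 ± 0.037 under abemaciclib and 1.06 ± 0.28 in the combination (SD, n = 3, exact permutation test, adjusted p = 0.00108), so that cyclin E1 reads were fewer than cyclin E2 reads in the groups without abemaciclib and more in the groups with it. This ratio restates the CCNE2 share of cyclin E reads given above, and its SD of 0.037 is likewise below counting error. The ratio of CCNE1 to CCNA2 moved further, from -2.65 ± 0.25 in DMSO to 0.20 ± 0.18 under abemaciclib, -0.24 ± 0.30 under fulvestrant and 3.40 ± 0.31 in the combination (SD, n = 3, exact permutation test, p = 6.49e-05, the smallest possible, adjusted p = 0.000325). With CCNA2 at the floor, the last of these depends on the prior count of 2, as does the combination value of every pair with CCNA2. Combination values of pairs with CDC25A, at 3 to 5 reads per library, depend on it in part. CCNE1 and CDK2 formed the pair that did not pass (exact permutation test, adjusted p = 0.0903), with mean log2 ratios of -3.63, -2.98, -3.49 and -3.17 in DMSO, abemaciclib, fulvestrant and combination. That pair passed when combination replicate 1 (0.013) or combination replicate 3 (0.0287) was left out, and the pair of CCNE2 and CDC25A (exact permutation test, adjusted p = 0.0152) no longer did without fulvestrant replicate 1 (0.0514).

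Relative to reads of the kinase, cyclin reads were fewer in every treated library than in DMSO. Reads of CCNE1, CCNE2 and CCNA2 together came to 76.7 ± 16.3 per 100 reads of CDK2 in DMSO, 28.6 ± 3.06 under abemaciclib, 28.7 ± 2.16 under fulvestrant and 16.3 ± 7.10 in the combination (SD, n = 3). This measure was chosen after its parts had been seen and is given with no test. Of the tested pairs within it, CCNA2 against CDK2 went from -0.98 ± 0.35 in DMSO to -3.18 ± 0.072 under abemaciclib and -3.25 ± 0.27 under fulvestrant (SD, n = 3), while its value in the combination is set by the prior count, so that the test over the 4 groups (exact permutation, adjusted p = 0.000909) includes a group whose value is not measured. CCNE2 against CDK2 went from -2.53 ± 0.28 to -3.98 ± 0.18, -3.20 ± 0.067 and -4.23 ± 0.76 in abemaciclib, fulvestrant and combination (SD, n = 3, exact permutation test, adjusted p = 0.00235). CCNE1 against CDK2 did not fall, at -3.63 in DMSO and -2.98, -3.49 and -3.17 in the same groups. That pair did not pass (exact permutation test, adjusted p = 0.0903).

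The other genes of the CDK2 pathway were taken as 6 lists, also chosen with earlier results of these data known. They held 53 genes, of which 49 were tested. Against DMSO, 30 were lower and 5 higher under abemaciclib (median log2 change -0.80), 33 lower and 5 higher under fulvestrant (-1.30), and 37 lower and 7 higher in the combination (-1.35), beside all-gene medians of 0.00046, 0.0075 and 0.010. Of all genes tested, 20.7%, 25.7% and 27.5% were called lower and 20.5%, 25.3% and 27.7% higher in these comparisons, and the counts of each list below stand against the same shares. SPDYA, CCND2, CDK6 and CCNA1 had too few reads to be tested. CCNA1, the germline form of cyclin A, had 0 reads in every library, so that every cyclin A read counted was from CCNA2.

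In the list of CDK2 activators, CDC25B and CDC25C, the other phosphatases of the CDC25 family, also fell under each treatment. CDC25B fell from 147 ± 8.49 CPM in DMSO to 84.5 ± 6.03 under abemaciclib, 39.3 ± 7.00 under fulvestrant and 23.7 ± 5.25 in the combination (SD, n = 3, log2 changes of -0.80, -1.91 and -2.62, all called). CDC25C fell from 29.5 ± 3.97 CPM to 10.5 ± 0.646 and 2.32 ± 0.984 CPM under the single drugs, and held 2 reads in all combination libraries together. CDK7, the kinase that phosphorylates the activating loop of CDK2, rose, by 0.69 ± 0.16 under abemaciclib (edgeR adjusted p = 0.000894), 0.40 ± 0.16 under fulvestrant (0.0422) and 0.40 ± 0.16 in the combination (0.037). Its partner MNAT1 fell (-0.84, -0.65 and -1.05), and its cyclin CCNH was not called in these comparisons. Of the 8 activators tested, 4, 5 and 5 were lower under abemaciclib, fulvestrant and combination and 1, 1 and 2 were higher.

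Inhibitors of CDK2 did not move together. CDKN1A, which encodes the inhibitor p21, read 14.0, 16.7 and 15.1 CPM in DMSO, 46.2, 48.1 and 44.7 CPM under abemaciclib, 132, 142 and 122 CPM under fulvestrant and 119, 111 and 118 CPM in the combination. It was thus higher in every treated library, and rose by 1.59 ± 0.12 (edgeR adjusted p = 1.64e-11), 3.10 ± 0.11 (2.05e-18) and 2.91 ± 0.11 (2.13e-18). CDKN1B, which encodes p27, fell (-0.50, -0.29 and -0.36, edgeR adjusted p of 0.000623, 0.0315 and 0.00578). PKMYT1, a kinase that places inhibitory phosphates on CDKs, fell under abemaciclib and fulvestrant (-1.82 and -3.39), and its reads in the combination were fewer than in DMSO by a ratio of 93.0 (95% counting interval 48.7 to 204). WEE1, another kinase that places an inhibitory phosphate on CDKs, fell under abemaciclib and in the combination (-0.93 and -0.85) and was not called under fulvestrant (-0.38, edgeR adjusted p = 0.0528). Of these 8 genes, 5, 4 and 6 were lower and 1, 2 and 2 higher in the 3 comparisons.

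Genes that govern the turnover of the cyclins and of CDC25A were 8 lower and 2 higher of 13 under abemaciclib, 8 lower and 2 higher under fulvestrant and 8 lower and 3 higher in the combination. SKP2, the substrate receptor of the ligase that marks p27 and cyclin E, fell in the 3 comparisons with DMSO (-1.37 ± 0.16, -1.31 ± 0.16 and -1.35 ± 0.16), as did CCNF, another ligase receptor of the cell cycle (-1.67 ± 0.13, -1.57 ± 0.13 and -1.52 ± 0.12). For neither gene did the combination pass the test against a single drug (SKP2 0.02 and -0.04, CCNF 0.14 and 0.05 against abemaciclib and fulvestrant), and their interactions were positive (1.33 and 1.72, edgeR adjusted p of 0.000185 and 2.07e-07). FBXW7, which recognises phosphorylated cyclin E, fell by 0.48 under abemaciclib (edgeR adjusted p = 0.00869) and was not called under fulvestrant (-0.27, 0.106) or in the combination (-0.29, 0.0794). CDC20, an activator of the anaphase-promoting complex, fell under abemaciclib and fulvestrant (-1.72 and -3.80). Its ratio of reads was 118 for DMSO over the combination (95% counting interval 59.4 to 273). FZR1, the other activator of that complex, rose by 0.41 under abemaciclib (edgeR adjusted p = 0.00917) and by 0.39 in the combination (0.00775) and was not called under fulvestrant (0.17, 0.276).

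Among substrates of CDK2, 6, 6 and 7 of 9 were lower and 0 were higher. CDC6 and CDT1, which license replication origins, fell under abemaciclib (-1.67 and -2.52), fulvestrant (-3.38 and -3.82) and the combination (-4.98 and -5.59). MYBL2 and TICRR, at 1 read each over the 3 combination libraries, were at the floor there. RBL1, which encodes p107, fell (-1.93, -2.08 and -2.63), while RB1 (-0.08, 0.10 and -0.34) and RBL2 (0.20, -0.06 and 0.02) were not called in any of the 3 comparisons with DMSO.

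The transcription factors upstream were 3 lower of 5 under abemaciclib and 5 of 5 under fulvestrant and in the combination. E2F1 fell from 94.6 ± 4.31 CPM in DMSO to 35.4 ± 3.12 under abemaciclib, 13.1 ± 1.16 under fulvestrant and 4.91 ± 1.07 in the combination (SD, n = 3, log2 changes of -1.42, -2.85 and -4.27, all called). E2F2 (-2.33, -3.26 and -4.34) and FOXM1 (-2.05, -2.59 and -4.84) were also lower in the 3 comparisons with DMSO. E2F3 was not called under abemaciclib (0.03, edgeR adjusted p = 0.807) and fell under fulvestrant and in the combination (-0.62 and -0.68). MYC was not called under abemaciclib (0.12 ± 0.37, edgeR adjusted p = 0.825) and fell by 1.40 ± 0.44 under fulvestrant (0.0222) and by 1.93 ± 0.46 in the combination (0.00428). CCND1, the gene of cyclin D1 and a member of the list of cyclins and CDKs of other phases, rose by 1.10 under abemaciclib and fell under fulvestrant and in the combination (-1.66 and -1.41), unlike the E and A cyclins, which fell in all 3. CCND3, the other D-type cyclin gene tested, also fell in all 3 (-0.84, -0.94 and -1.14, all called). Of the 6 genes tested in this list, 4, 5 and 6 were lower and 1, 0 and 0 higher. CDK1, the mitotic kinase that cyclin A also binds, fell under abemaciclib and fulvestrant (-2.25 and -3.28), and its ratio of reads was 152 for DMSO over the combination (95% counting interval 80.0 to 334).

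**Figure D4:**
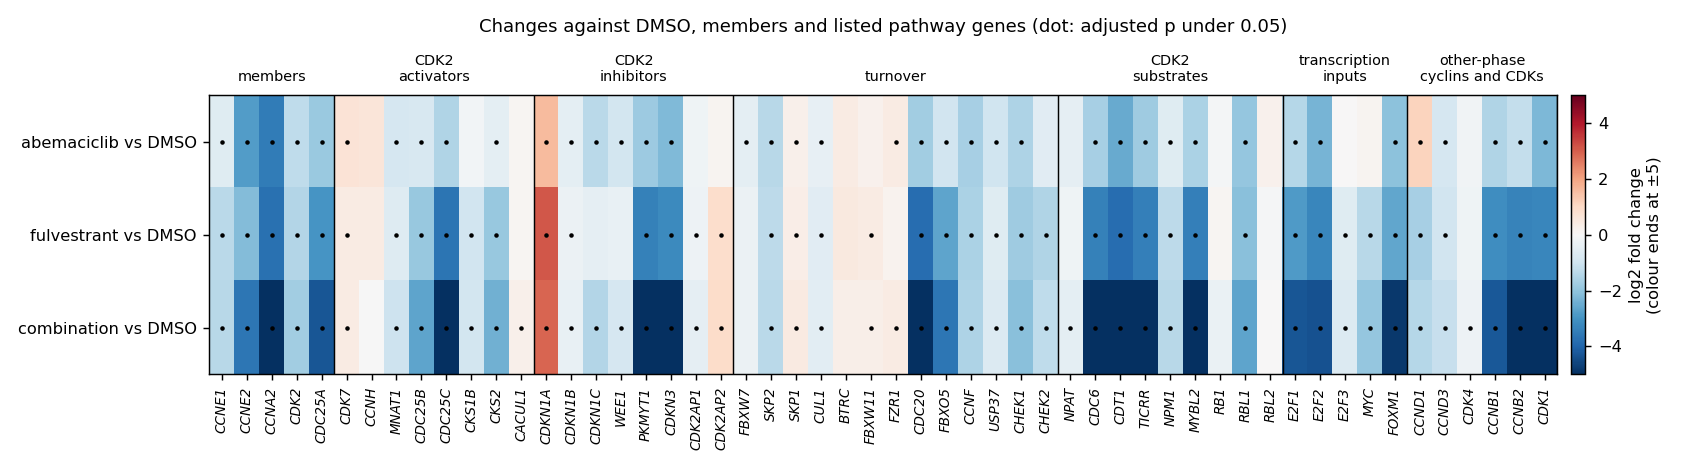
Log2 fold changes against DMSO of the 5 genes and the 49 tested genes of the 6 pathway lists, with colour ending at ±5 and a dot where the adjusted p was under 0.05. Most columns are blue in all 3 rows, CDKN1A is red throughout, and CCND1 is red under abemaciclib and blue under fulvestrant and the combination.

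Over all treatments, the pattern of log2 CPM over the 12 libraries was most alike for CCNA2 and CDC25A (Pearson r = 0.951) and least alike for CCNE1 and CCNE2 (r = 0.787). These correlations describe 4 groups of 3 libraries and carry no p. For genes with few reads in the combination, among them CCNA2 and CDC25A, the correlations depend in part on the prior count of 2. Of 9076 other genes with a mean of at least 10 CPM in some group, the closest to CCNA2 were MKI67 (r = 0.995), the proliferation marker, IQGAP3 (0.993) and TK1 (0.993), the thymidine kinase of S phase. Closest to CDC25A were TCP1, FADS1 and TPX2 (r = 0.987, 0.986 and 0.985), the last of which assembles the mitotic spindle. Closest to CCNE2 were AIF1L, PRPS2 and MT2A (0.988, 0.988 and 0.987). MT2A, a metallothionein, read 410 CPM in DMSO, 59.0 under abemaciclib, 95.9 under fulvestrant and 34.0 in the combination, the order of CCNE2. Closest to CDK2 were NASP (0.981), a histone chaperone, HNRNPH1 (0.977) and TRA2B (0.976), which act in splicing. Closest to CCNE1 were the ribosomal protein gene RPL27A (0.979), the nucleolar gene NPM1 (0.977) and CENPP (0.976). RPL27A read 2055 CPM in DMSO, 1380 under abemaciclib, 895 under fulvestrant and 867 in the combination, and NPM1, itself a CDK2 substrate, 977, 650, 396 and 376 CPM.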

How the data were processed

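The deposited table holds counts, not normalised by the authors, of reads per gene symbol in 12 libraries (QuantSeq 3′ kit). Per the submitters' processing notes, reads were aligned with STAR to hg38 and counted with featureCounts 2.0.1. The strand setting is not given in the sources used here. Of 60656 rows, 44 had no name and 0 reads and were left out, and 1079 rows with a shared name were kept apart. Library totals are given in the report. Without molecular identifiers, reads are not independent molecules, so floors (3 reads) and 95% counting intervals cover counting error only. Groups came from the treatment labels, and the treatment time from the text of the study.

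In R 4.3.3 with edgeR 4.0.16, low counts were removed with filterByExpr (minimum count 10 by group, total of at least 15) and the rest scaled by TMM, and fitted with 4 group means over 12 libraries by robust quasi-likelihood (common biological coefficient of variation 0.0918). P values were Benjamini-Hochberg adjusted over all 11803 genes, with a threshold of 0.05. SEs were derived from the F statistic, and 95% intervals are 1.96 SE. For groups with few reads such SEs, and the intervals made from them, can lie below counting error. CPM values use reads in tested genes times the TMM factor. Ratios within a library used log2 CPM with a prior count of 2 and an exact permutation of the F statistic, which is two-sided by construction. Alternatives were DESeq2 1.42.0, other scalings and filters, a replicate block, fits of the compared groups only, thinning, and leaving out each library. The scripts were tested on simulated counts.

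Replicates are labelled biological, and p values measure the spread between them. Sharing a replicate number did not pair the libraries. Coordinates and overlaps are from GENCODE v44 on GRCh38, and promoters from RefSeq. Named genes are all members, pathway list genes picked for their change or a role towards a member, overlapping genes, and the 3 genes most correlated with each member. Not every pathway gene with the largest or smallest change of its list is named. The members and lists were chosen with earlier results of these data known. Figures were drawn with matplotlib 3.10.9.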

Additional observations from a re-analysis of the deposited data

Results flagged for a closer look

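The change made by abemaciclib differed with and without fulvestrant for CCNE2 and CDK2, by the edgeR test of the interaction, and CCNA2 passed the same test on a group at the floor. For CCNE2 the difference was 1.32 ± 0.36 on the log2 scale (SE, adjusted p = 0.00875), from a change of -2.78 without fulvestrant and -1.47 with it. For CDK2 it was 0.98 ± 0.26 (edgeR adjusted p = 0.0182), from -1.25 and -0.27, and the call was lost without fulvestrant replicate 2 (0.057) or fulvestrant replicate 3 (0.056). For CCNA2 the fitted value, whose SE is below counting error, was -1.89 ± 0.65 (edgeR adjusted p = 0.0438). It depends on the count added to a combination group with 2 reads, its call was lost in 10 of 18 alternatives, and at the floor the change with fulvestrant was -3.44 beside -3.48 without it, which establishes no difference. Of all genes tested, 21.1% were called for this interaction.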

How the results depend on the processing

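Of 35 member values (5 genes in 6 pairwise comparisons and the interaction), 25 kept their direction and side of the threshold under all alternatives that gave a value, and 10 changed under some. All 15 values against DMSO kept their direction, and the CCNE1 value under abemaciclib lost its call as given above. With single libraries left out, the number of members called ranged from 2 to 5 for the combination against abemaciclib and from 1 to 3 for fulvestrant against abemaciclib. The CCNE1 difference between combination and fulvestrant, near 0 at -0.0039, changed sign with upper-quartile scaling (0.0031), with no filter on low counts (5.04e-05), and without fulvestrant replicate 3 (0.019), combination replicate 2 (0.011) or combination replicate 3 (0.056), with a range of -0.092 to 0.056 over single libraries left out. Requiring at least 10 counts in every library removed CCNE2, CCNA2 and CDC25A, so no count of members exists under that filter. For the combination against fulvestrant, the number of genes called over the whole table was 227, and became 91 with that filter, 125 when only the compared groups were fitted, 588 without fulvestrant replicate 3 and 146 without combination replicate 3. The replicate numbers did not pair the libraries: deviations from the group means correlated at -0.215 to 0.119 between libraries of the same number, and 5 of 12 libraries correlated best with their own number. With a replicate block, the CDK2 difference between combination and abemaciclib was -0.51 (edgeR adjusted p = 0.00883), and no other member call changed. Other scalings moved the median of all genes by 0.028 or less. Depth limits CCNA2 and CDC25A in the combination, at 0 to 1 and 3 to 5 reads per library.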
